A study of Danio rerio with 12 samples.

Results

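Macrophages that were pulling on ruptured brain vessels were compared with macrophages of uninjured brains in zebrafish larvae. The comparison was defined by the labelled cell type and lesion stage and used 4 of the 12 libraries of the series, 2 labelled macrophage traction and 2 labelled macrophage uninjured control. The study's title concerns macrophages that repair a brain vessel rupture by adhering to it and exerting traction. RNA was sequenced from macrophages and from endothelial end cells, each without injury, when a macrophage had arrived and during its traction, with 2 libraries for each of the 6 groups.

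The macrophages of the traction, arrival and control groups carried the transgenes coro1a:Kaeda and flk1:eGFP, on a strain labelled ABGO. Kaede is a fluorescent protein that turns from green to red under violet light, here driven by the promoter of coro1a, an actin-binding protein gene of leukocytes, and eGFP marked the vessels through the flk1 promoter. About 80 cells in 20 animals were converted with a laser, dissected heads were digested with trypsin, and flow sorting collected the cells, per the labels' protocols. The coro1a promoter is active in leukocytes in general, so the reporter alone does not separate macrophages from neutrophils. Animals were pooled, and the labels give neither an age nor separate animals for the replicates. The p-values therefore measure only the spread between libraries, which was estimated over all 12 libraries of the series, endothelial ones included. In such bulk libraries, fewer cells of a type and less RNA per cell cannot be told apart.

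Macrophages are phagocytes that take up dying cells, heme and iron, release inflammatory mediators and move and hold on through integrins, which couple the matrix or neighbouring cells to actin and myosin. In low oxygen, cells stabilise hypoxia-inducible factors, which raise glucose transport, glycolysis and vascular growth factors. At a bleeding vessel, tissue factor starts clotting, and plasminogen activators start the dissolution of the clot.

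Values are RPKM (read numbers divided by the length of the gene and the size of the library) from 2 libraries a group, with replicate 1 first. Differences are traction minus control on the log2(RPKM + 1) scale, with the standard error (SE) of limma, and they understate the change of weakly expressed genes. Genes were called separated where both traction values lay on one side of both control values, with a gap of at least 1 on the log2(RPKM + 1) scale between the nearest values. Reads in genes numbered 21285807 and 35419955 in the traction libraries and 28277954 and 12283046 in the control libraries. A read was found in 11535 and 17011 genes at traction and in 13078 and 12348 genes in controls, and a single gene without a name, ENSDARG00000080337, held 9.89% and 6.49% of reads at traction and 17.1% and 16.7% in controls.

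The libraries matched their macrophage label, and some held markers of other cells. MPEG1 (ENSDARG00000055290), a pore-forming protein gene of macrophages, had 342 and 209 RPKM at traction and 438 and 291 RPKM in controls. CORO1A (ENSDARG00000054610), the gene of the reporter's promoter, had 557 and 450.5 RPKM at traction, against 448 and 255 RPKM in controls. SPI1 (ENSDARG00000000767), a myeloid transcription factor gene, had 440.0 and 239 RPKM at traction and 342 and 171 RPKM in controls. The chemokine gene ccl34b.1 (ENSDARG00000093608) was the most abundant macrophage marker, with 22544 and 5698 RPKM at traction and 17912 and 2459 RPKM in controls. The 42 macrophage markers summed to 34576 and 12692 RPKM at traction and 45397 and 12541 RPKM in controls. Endothelial markers (24 genes) summed to 10.5 and 93.6 RPKM at traction and 39.8 and 47.0 RPKM in controls.

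Traction replicate 1 stood apart through photoreceptor and lens markers (72 genes), which summed to 3080 RPKM there and 46.6 RPKM in traction replicate 2, against 30.1 and 60.8 RPKM in controls. It also stood apart through neutrophil markers (5 genes), at 1707 RPKM, against 45.3 RPKM in traction replicate 2 and 6.84 and 1.53 RPKM in controls. Most of that sum came from lyz (ENSDARG00000057789), the lysozyme gene, with 1447 and 1.22 RPKM at traction and none in either control. Epidermal markers (17 genes) divided each pair, with 241 and 1106 RPKM at traction and 1460 and 54.7 RPKM in controls. Control replicate 2 had the fewest reads, and 21 of the 47 proteasome genes were at 0 in it, against 9 and 7 in the traction libraries and 8 in control replicate 1.

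**Figure D1:**
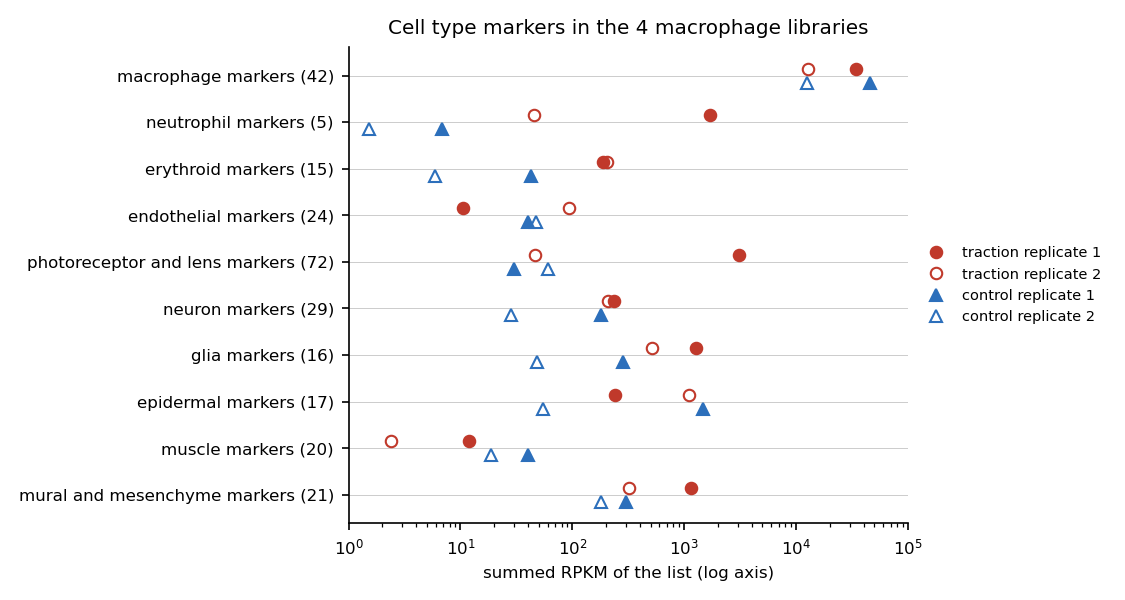
Summed RPKM (log axis) of 10 lists of cell type markers in the 2 macrophage traction libraries (red circles, replicate 1 filled) and the 2 macrophage control libraries (blue triangles, replicate 1 filled), with the number of genes in parentheses. Macrophage markers lie at 12541 RPKM or more in all 4 libraries, while photoreceptor, lens and neutrophil markers are high in traction replicate 1 alone.

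Replicates differed widely from each other. Over genes, which are no independent replicates, the Spearman correlation was 0.522 between the traction libraries and 0.378 between the control libraries, and it ran from 0.282 to 0.475 between a traction and a control library. The typical SE of a gene's difference was 1.65 on the log2 scale (median), with the spread estimated over all 12 libraries. No gene passed limma at a Benjamini-Hochberg adjusted p of 0.05 (0 of 17613, smallest adjusted p = 0.0607), while 1049 genes (5.96%) had an unadjusted p under 0.05, 762 of them higher (4.33%) and 287 lower (1.63%). Voom, which weights each of the recovered read counts by its precision, called 417 genes higher and 54 lower at traction (2.37% and 0.307%). Of these, 411 and 49 were separated, where 9.4% of all tested genes were separated higher and 3.47% lower. Voom compares the same 4 libraries as the separation rule, so their overlap is no independent support, also for the genes named below. A voom adjusted p is not given for every gene named below, and many of the genes without one were not called by voom. With 2 libraries on each side the smallest p of an exact two-sided permutation test is 0.333, so none was run for single genes.

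Separated genes were more often higher than lower at traction. Both traction values lay above both control values in 19.1% of tested genes and below them in 11% of tested genes. With a gap of at least 1 the counts were 1655 higher (9.4%) and 612 lower (3.47%), so 73.0% of separated genes were higher. After quantile normalization 1030 (5.85%) were higher and 979 (5.56%) lower, which puts 51.3% on the higher side. The median difference over all tested genes was 0.26 as deposited and -0.0013 after quantile normalization, and list medians below are read against it. In 559 of the separated higher genes both controls were at 0, and in 84 of the separated lower genes both traction libraries were at 0.

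**Figure D2:**
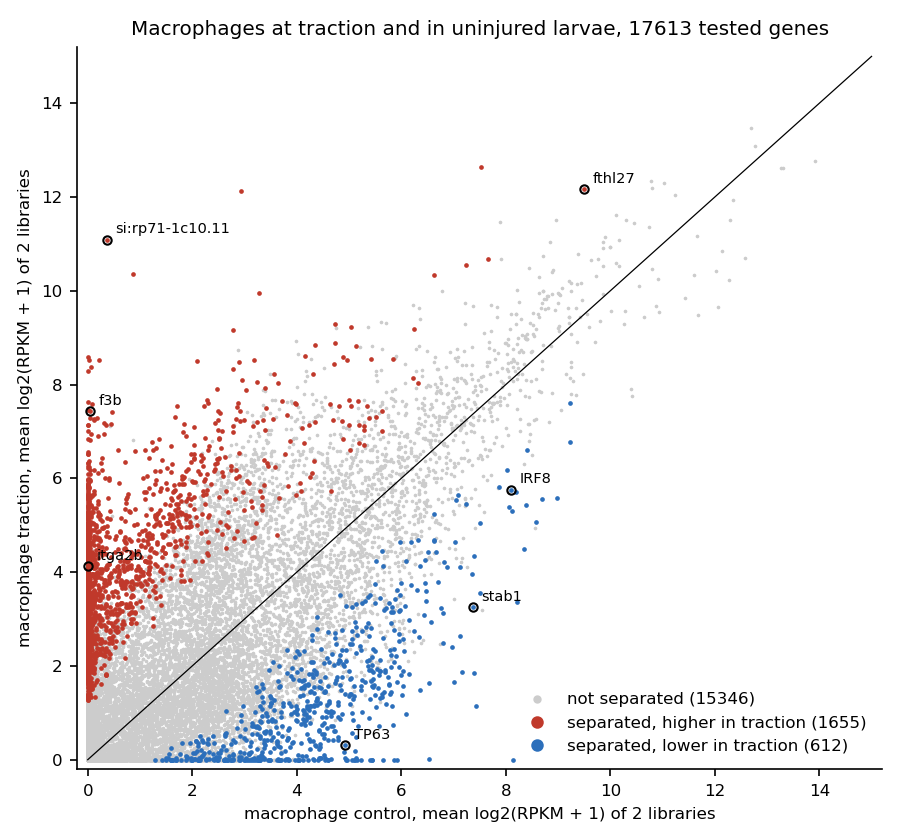
Mean log2(RPKM + 1) of the 2 macrophage traction libraries (vertical) against that of the 2 macrophage control libraries (horizontal) for 17613 tested genes, with the line of equal values. The 1655 genes separated higher at traction (red) crowd along the axis of genes near 0 in controls, and the 612 separated lower (blue) lie on the other side of the line; circles mark genes named in the text.

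By the rule of selection, the genes of smallest p on the higher side had at least 10 RPKM in both traction libraries. All but si:dkey-119g10.4 lay under 1 RPKM in both controls. For 11 of these 15 genes both arrival libraries also lay at or under 2 RPKM. si:rp71-1c10.11 (ENSDARG00000096721), an uncharacterised gene, had 927 and 5126 RPKM at traction, 0 in both arrival libraries and 0 and 0.657 RPKM in controls (10.73 ± 1.62, limma adjusted p = 0.0607, voom adjusted p = 1.71e-06). It was the single gene of 17613 (0.00568%) that limma called between macrophage traction and arrival, with a difference of 11.09 ± 1.62 and an adjusted p of 0.0393. Both traction libraries were high and the other 4 macrophage libraries were near 0.

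negaly6 (ENSDARG00000089123) had 182 and 533 RPKM at traction and was listed at 0 in both controls and both arrival libraries. The authors' deposited table pairs it with a mouse urokinase receptor entry. Another 3 genes that table pairs with a zona pellucida-like domain protein had high values in traction replicate 2 above all. si:ch211-229d2.5 (ENSDARG00000079119) had 128 and 1138 RPKM at traction and 0 in controls, si:dkey-4p15.5 (ENSDARG00000086272) 44.3 and 2961 RPKM against 0 and 0.345 RPKM, and si:ch211-103f14.3 (ENSDARG00000088315) 24.7 and 251 RPKM against 0. PTGIS (ENSDARG00000060094), the prostacyclin synthase gene, had 27.9 and 75.5 RPKM at traction and 0 in both controls. APOD (ENSDARG00000057437), a lipocalin gene that carries small lipids, had 47.2 and 123 RPKM at traction and 0 in both controls. In each of these genes traction replicate 2 was the higher of the pair.

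A keratin gene, krt1-c5 (ENSDARG00000026979), had 44.3 and 538 RPKM at traction and 0 and 0.0537 RPKM in controls. The keratin gene krt18a.1 (ENSDARG00000018404), of the epidermal list, had 13.1 and 169 RPKM at traction and 0.0191 and 0.044 RPKM in controls. In the endothelial libraries krt18a.1 lay between 213 and 609 RPKM. Epidermal markers as a sum did not separate the groups. The part of epidermal or endothelial RNA in these values was not tested. vsig8a (ENSDARG00000054050), which the authors' deposited table pairs with an adenovirus receptor homolog, had 30.9 and 97.6 RPKM at traction and 0.0197 and 0 RPKM in controls. si:dkey-205h13.2 (ENSDARG00000089429), paired there with a cartilage matrix protein, had 81.4 and 1625 RPKM at traction and 0 and 0.0415 RPKM in controls. si:dkey-16l2.17 (ENSDARG00000027196), paired with a serine protease, had 61.3 and 45.9 RPKM at traction and 0 in both controls. These genes other than krt18a.1 were among the 11 at or under 2 RPKM in both arrival libraries.

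Another 4 of the 15 were above 2 RPKM in both arrival libraries, and 3 of them are described here. si:dkey-119g10.4 (ENSDARG00000095801), without a description, had 15215 and 1313 RPKM at traction, 3922 and 5790.4 RPKM at arrival and 19 and 1.94 RPKM in controls. MATK (ENSDARG00000074670), a kinase gene that restrains Src kinases, had 234 and 131 RPKM at traction, 56.9 and 569 RPKM at arrival and 0 in both controls. SLC43A3 (ENSDARG00000057949), a purine base transporter gene in mammals, had 138 and 169 RPKM at traction, 64.7 and 282 RPKM at arrival and 0.0839 and 0.0965 RPKM in controls. In MATK and SLC43A3 the traction pair lay inside the range of the arrival pair. The 15 genes had limma adjusted p values of 0.0607 to 0.387 and 14 were called by voom, the exception being si:dkey-119g10.4 (voom adjusted p = 0.104).

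Genes of smallest p on the lower side had at least 10 RPKM in both controls by the rule of selection. Their traction values were close to 0. For 10 of these 15 genes both arrival libraries also lay at or under 2 RPKM. In 2 genes both arrival libraries lay above 2 RPKM. They were si:dkey-27p18.3 (ENSDARG00000092228), with 56.3 and 23.8 RPKM at arrival, and si:dkey-9k7.3 (ENSDARG00000089821), with 23.9 and 12.3 RPKM. 5S_rRNA (ENSDARG00000083941), annotated as a ribosomal RNA gene, was at 0 in both traction libraries and at 152 and 517 RPKM in controls (-8.14 ± 1.72, limma adjusted p = 0.387, voom adjusted p = 0.00722). TP63 (ENSDARG00000044356), a transcription factor gene of epithelial stem cells, had 0.0414 and 0.464 RPKM at traction and 16.7 and 51.5 RPKM in controls. p2rx7 (ENSDARG00000042440), an ATP-gated channel gene, had 0.025 and 0.737 RPKM at traction and 33.3 and 18.5 RPKM in controls. That these pairs did not overlap and were high in both controls follows from the selection.

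SLC15A2 (ENSDARG00000032010), a peptide transporter gene, was at 0 in both traction libraries and at 18.6 and 12.7 RPKM in controls. MYL11 (ENSDARG00000053254), a skeletal muscle myosin light chain gene, was at 0 at traction and at 13.3 and 132 RPKM in controls. Muscle markers (20 genes) summed to 11.9 and 2.38 RPKM at traction and 40.3 and 18.7 RPKM in controls, 17 and 16 of them at 0 at traction and 14 and 15 at 0 in controls. vtg8 (ENSDARG00000092028), a yolk protein precursor gene, had 0.963 and 0 RPKM at traction and 18.1 and 63.1 RPKM in controls. The part of muscle or yolk RNA in these differences was not tested. RAPGEF6 (ENSDARG00000010945), an activator of the adhesion switch Rap1, had 0.0117 and 2.17 RPKM at traction and 20 and 52.6 RPKM in controls. Of the 15 lower genes 8 were called by voom, TP63, vtg8, RAPGEF6 and p2rx7 not among them (voom adjusted p = 0.133 to 0.463).

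**Figure D3:**
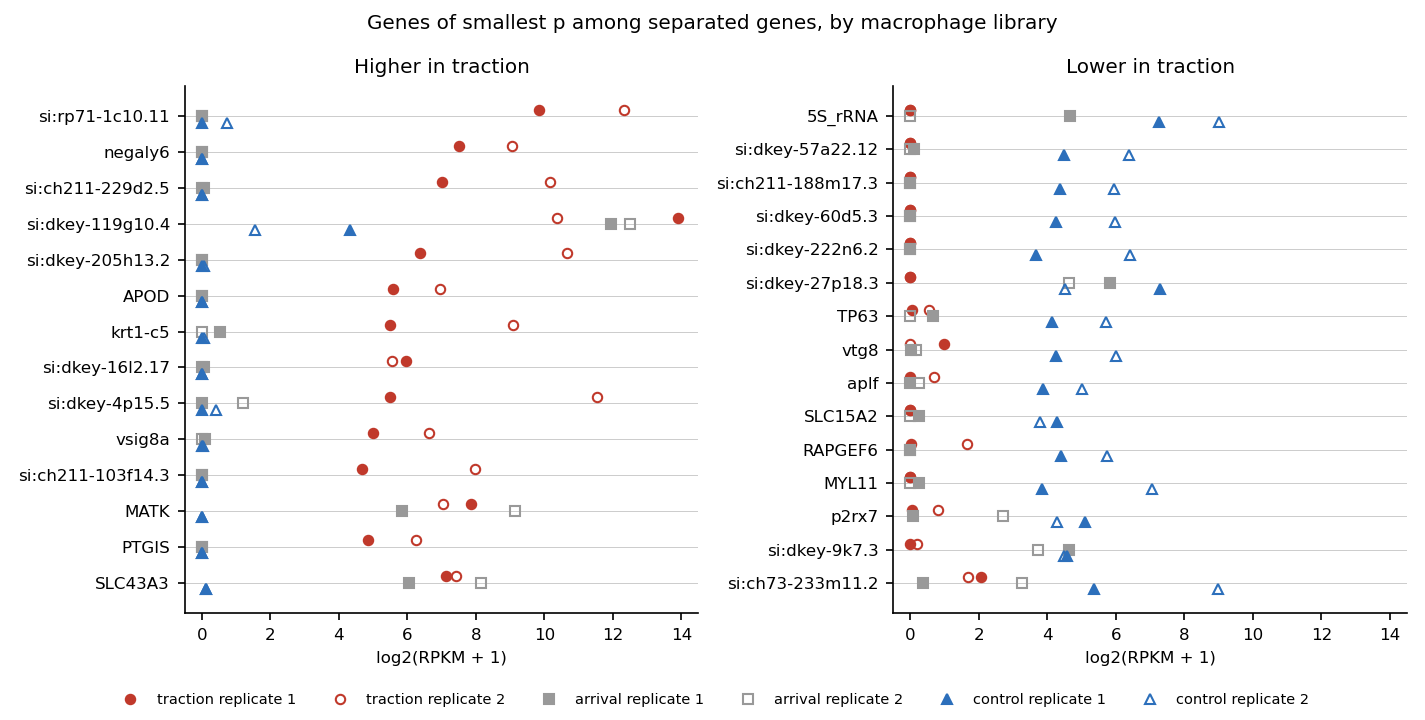
log2(RPKM + 1) in each of the 6 macrophage libraries for 14 of the 15 genes of smallest limma p among separated genes higher at traction (left panel) and the 15 lower (right panel). Traction values (red circles) and control values (blue triangles) do not overlap in any row, as the selection required. Arrival values (grey squares) sit near the controls in most rows of the left panel but near traction for si:dkey-119g10.4, MATK and SLC43A3. In the right panel both arrival values are at or under 2 RPKM in 10 of the 15 rows.

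Glycolysis and hypoxia genes had one of the largest shares of separated members. Of 46 tested members, 20 were separated higher (43.5%, against 9.4% of all genes) and 2 lower (4.35%, near the 3.47% of all genes). Voom called 9 members higher, where it called 2.37% of all genes higher. The median difference was 2.35, against 0.26 for all genes, and it ran from 0.99 without traction replicate 2 to 3.74 with a pseudocount of 0.1. slc2a3b (ENSDARG00000037861), a glucose transporter gene, had 126 and 98.2 RPKM at traction and 0.0146 and 0.0337 RPKM in controls (6.78 ± 1.73, limma adjusted p = 0.427, voom adjusted p = 0.000453). pgam1a (ENSDARG00000005423), a phosphoglycerate mutase gene of glycolysis, had 418 and 366 RPKM at traction and 23.2 and 12.21 RPKM in controls (4.46 ± 1.27, voom adjusted p = 0.464). VEGFA (ENSDARG00000034700), the vascular endothelial growth factor gene, had 19.6 and 10.0 RPKM at traction, 0 in both arrival libraries and 0.302 and 0 RPKM in controls (3.72 ± 1.09, voom adjusted p = 0.236). All 3 were named from the separated members, so their distance from the controls was selected for.

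Separated members covered several steps of glycolysis. The hexokinase gene HK1 (ENSDARG00000039452) had 75.8 and 45.1 RPKM at traction and 0.0174 and 1.22 RPKM in controls. The aldolase gene ALDOC (ENSDARG00000019702) had 257 and 493 RPKM at traction and 48.7 and 0.111 RPKM in controls. The more abundant of the copies annotated ENO1, the enolase gene (ENSDARG00000022456), had 184 and 805 RPKM at traction and 37.0 and 22.1 RPKM in controls. In ALDOC control replicate 1 was well above control replicate 2, and in ENO1 both controls were low. GPI, PFKP, TPI1, GAPDH and both ALDOA copies also had a separated member, on the higher side.

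Hypoxia-related members were separated in both directions. EGLN3 (ENSDARG00000032553), a prolyl hydroxylase gene that marks hypoxia-inducible factors for decay, had 65.4 and 103 RPKM at traction and 0 and 0.0352 RPKM in controls (voom adjusted p = 5.69e-05). P4HA1 (ENSDARG00000071082), a collagen prolyl hydroxylase gene, had 33.96 and 50.99 RPKM at traction and 0 in both controls (voom adjusted p = 0.000103). PFKFB3 (ENSDARG00000001953), which raises the allosteric activator of phosphofructokinase, had 87.3 and 59.2 RPKM at traction and 0.084 and 0.363 RPKM in controls. Its relative PFKFB4 (ENSDARG00000029075) was separated in the other direction, with 37.9 and 9.52 RPKM at traction and 121 and 228 RPKM in controls. The factor gene EPAS1 (ENSDARG00000008697) was also lower, with 0.0781 and 0 RPKM at traction and 3.14 and 6.22 RPKM in controls. The whole list summed to 5550 and 8153 RPKM at traction, 2851 and 4179 RPKM at arrival and 2150 and 753 RPKM in controls.

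The same list was less often separated in endothelial cells, where 3 of 46 members were separated higher and 2 lower at traction, against 3.34% and 4.14% of all genes. No member passed the limma interaction test of the cell types (0 of 46), so a difference between the cell types in this list was not shown. Endothelial traction replicate 1 held 52729 RPKM of photoreceptor and lens markers, and their part in the endothelial counts was not tested.

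**Figure D4:**
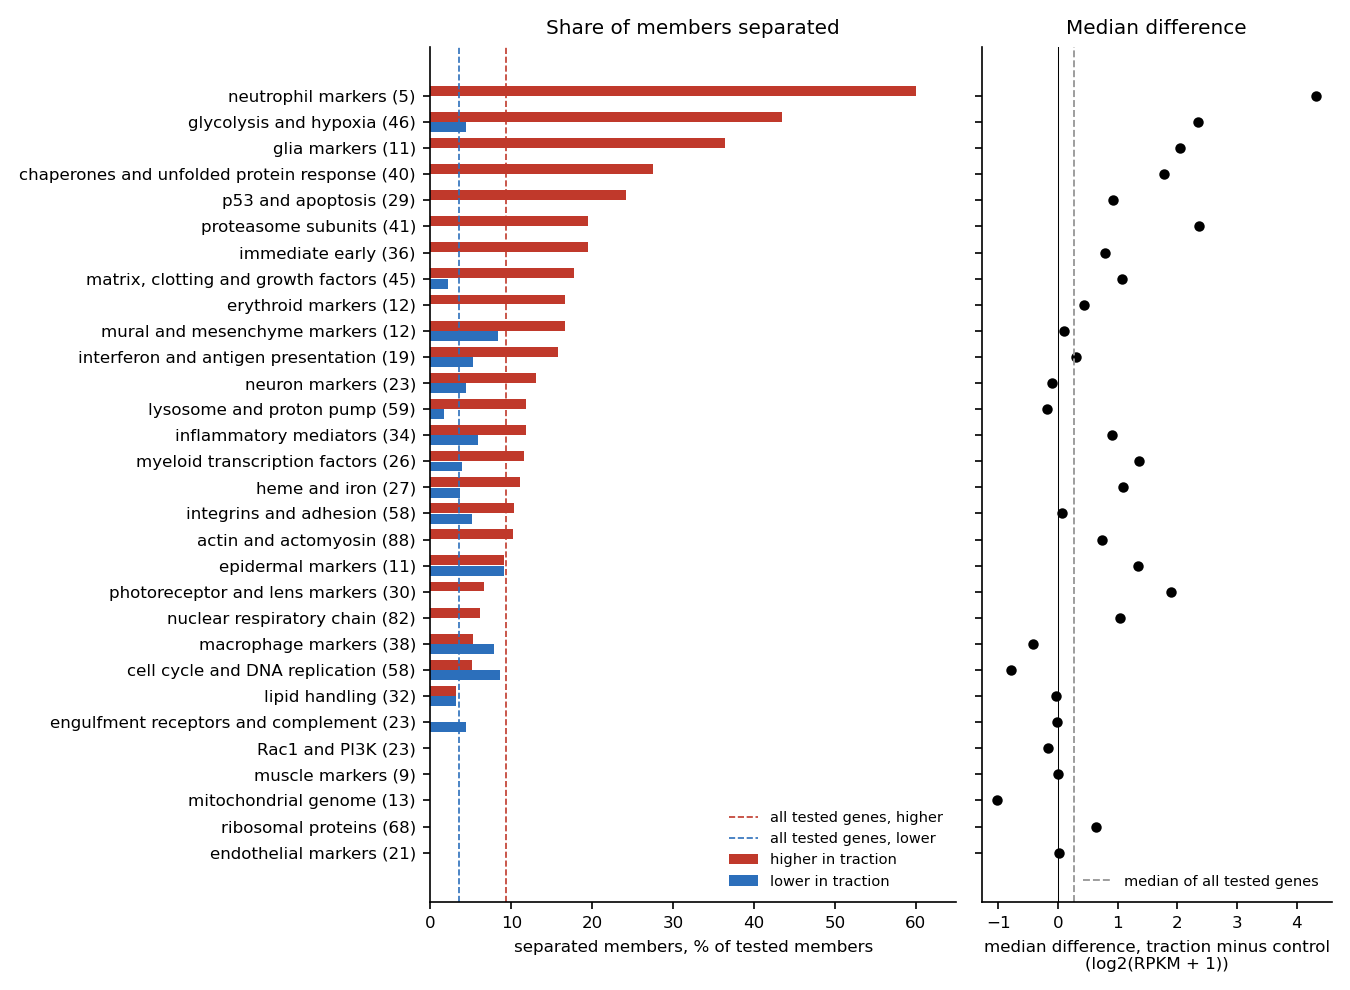
Share of tested members separated higher (red) and lower (blue) at macrophage traction for 30 gene lists, with the number of tested members in parentheses and dashed lines at the shares over all tested genes (left panel), and the median difference of each list in log2(RPKM + 1) units with the median of all genes dashed (right panel). Glycolysis and hypoxia genes reach 43.5% higher, and genes of the mitochondrial genome have the lowest median, -1.02.

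Tissue factor, which starts clotting, was among the clear differences of its list. f3b (ENSDARG00000005673), a tissue factor gene, had 105 and 282 RPKM at traction, 88.6 and 291 RPKM at arrival and 0 and 0.0602 RPKM in controls (7.40 ± 1.69, voom adjusted p = 1.56e-05). It was high in every lesion library of the macrophages and near 0 in both controls. plaua (ENSDARG00000075265), a plasminogen activator gene, had 162 and 165 RPKM at traction and 24.6 and 110.1 RPKM in controls, which did not overlap but lay within a gap of 1. The list of matrix, clotting and growth factor genes had 8 of 45 members separated higher (17.8%, against 9.4% of all genes) and 1 lower (2.22%, against 3.47%), with a median of 1.08 that was 0.04 without traction replicate 2.

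Several matrix genes were present at traction and near 0 in controls. FN1 (ENSDARG00000006526), the fibronectin gene, had 15 and 4.70 RPKM at traction, 0.00557 and 0 RPKM at arrival and 0 in both controls (3.25 ± 0.92, voom adjusted p = 0.000413). mmp13a (ENSDARG00000012395), a collagenase gene, had 426 and 7.01 RPKM at traction and 0 in both controls. The gelatinase gene MMP9 (ENSDARG00000042816) had 295 and 0 RPKM at traction and 0 in controls, so it overlapped. mmp13a and MMP9 were highest in traction replicate 1, the library with 1447 RPKM of lyz, and the part of neutrophil RNA in them was not tested. TGFBI (ENSDARG00000071586), a matrix protein gene, was the separated lower member, with 0 and 8.84 RPKM at traction and 19.2 and 76.1 RPKM in controls.

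Integrin and adhesion genes were separated in both directions. Of 58 tested members 6 were separated higher (10.3%) and 3 lower (5.17%), near the shares of all genes, with a median of 0.06. itga2b (ENSDARG00000018687), the alpha chain of the fibrinogen receptor known from platelets and thrombocytes, had 21.3 and 12.8 RPKM at traction, 0.0136 and 0 RPKM at arrival and 0.00942 and 0 RPKM in controls (4.13 ± 1.08, voom adjusted p = 0.00311). ITGB3 (ENSDARG00000045070), the beta chain that pairs with it, had 10.4 and 8.71 RPKM at traction and 0 in both controls (3.39 ± 1.28, voom adjusted p = 0.00952). Both chains were separated at traction, and itga2b was near 0 in all other libraries of the series. NFE2 (ENSDARG00000020606), a transcription factor gene of the thrombocyte and red cell lineages, had 11.6 and 6.13 RPKM at traction and 0 and 0.272 RPKM in controls. The list of markers held no set for thrombocytes, and their part in these values was not tested.

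Copies of FERMT3, the kindlin gene that activates integrins in blood cells, differed in direction. FERMT3 (ENSDARG00000030938) had 107 and 27.9 RPKM at traction and 0.0137 and 0.0316 RPKM in controls, while FERMT3 (ENSDARG00000079267) had 26.1 and 22.0 RPKM at traction and 72.5 and 232 RPKM in controls. Reads of similar copies may have been split by the authors' counting. ITGAV (ENSDARG00000006314), an alpha chain that binds vitronectin and apoptotic-cell bridging proteins, had 8.25 and 3.05 RPKM at traction and 66.5 and 95.4 RPKM in controls (-3.72 ± 1.76). ALCAM (ENSDARG00000026531), an adhesion molecule gene, was lower too, with 10.8 and 3.27 RPKM at traction and 25.7 and 59.6 RPKM in controls. The junction gene f11r.1 (ENSDARG00000017320) had 121 and 138 RPKM at traction, 4.18 and 16.0 RPKM at arrival and 13.2 and 6.76 RPKM in controls.

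Actin and actomyosin genes had 9 of 88 members separated higher (10.2%, near the 9.4% of all genes) and 0 lower (against 3.47% of all genes), with a median of 0.74. After quantile normalization 7 members were separated higher and 4 lower, against 5.85% and 5.56% of all genes. tpm4a (ENSDARG00000023963), a tropomyosin gene, had 54.0 and 16.9 RPKM at traction, 0.0214 and 0.112 RPKM at arrival and 0 in both controls (4.97 ± 1.77, voom adjusted p = 0.000509). In the endothelial libraries tpm4a lay between 20.1 and 303 RPKM, and the part of endothelial RNA in the traction values was not tested. MYL9 (ENSDARG00000008030), a regulatory light chain gene of contractile myosin, had 20.8 and 22.7 RPKM at traction and 0.624 and 0 RPKM in controls (voom adjusted p = 0.246). MYLK (ENSDARG00000034801), the kinase gene that activates that chain, had 5.56 and 3.81 RPKM at traction and 0 in both controls (2.49 ± 0.785). ARPC5L (ENSDARG00000035433), a subunit gene of the actin-branching complex, had 18.8 and 16.4 RPKM at traction, 44.4 and 9.06 RPKM at arrival and 0 and 0.0739 RPKM in controls. In these 4 genes both macrophage controls lay under 1 RPKM. Without control replicate 2 the median was 0.16. MYH11 (ENSDARG00000009782), a myosin gene of the mural and mesenchyme list, had 6.79 and 7.53 RPKM at traction and 0.00498 and 0.0916 RPKM in controls. In that list 2 of 12 tested members were separated higher and 1 lower. The part of mural RNA in the values of tpm4a, MYL9 and MYLK was not tested.

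Rac1 and the PI3K subunits, which drive actin-rich protrusions, were not separated. rac1a (ENSDARG00000074849) had 68.5 and 57.4 RPKM at traction and 55.5 and 0.0389 RPKM in controls, so that control replicate 2 alone set the difference of 3.06 ± 1.77. PIK3CG (ENSDARG00000017757), the PI3K subunit gene of leukocytes, had 17.5 and 4.55 RPKM at traction and 16.2 and 15.7 RPKM in controls. PIK3CB (ENSDARG00000075253) had 18.9 and 6.26 RPKM at traction and 8.12 and 56.2 RPKM in controls. PIK3CA, PIK3CD and the copy annotated RAC1 (ENSDARG00000087954) stayed under 3 RPKM in all 4 libraries. No member of the list of 23 was separated in either direction (median -0.17), where 9.4% of all genes were separated higher and 3.47% lower. In a list this short, a count of 0 does not show that these genes were unchanged.

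Chaperone and unfolded protein response genes had 11 of 40 members separated higher (27.5%, against 9.4% of all genes) and 0 lower (against 3.47%), with a median of 1.77 that stayed between 1.39 and 2.24. hsp70l (ENSDARG00000055723), an inducible heat shock gene, had 73.1 and 495 RPKM at traction, 14.495 and 2.80 RPKM at arrival and 0.0154 and 0.106 RPKM in controls (7.5 ± 1.79, limma adjusted p = 0.427, voom adjusted p = 0.000826). hsp70.3 (ENSDARG00000021924) had 38.7 and 334 RPKM at traction, 36.0 and 36.2 RPKM at arrival and 0 in both controls (6.85 ± 2.36, voom adjusted p = 1.67e-07). dnajb1b (ENSDARG00000041394), a co-chaperone gene, had 14.9 and 91.7 RPKM at traction and 0 in both controls. Traction replicate 2 was the higher library in all 3.

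Proteasome subunit genes had 8 of 41 members separated higher (19.5%, against 9.4% of all genes) and 0 lower (against 3.47%), with a median of 2.37. PSMD8 (ENSDARG00000020454), a lid subunit gene, had 174 and 107 RPKM at traction and 12.3 and 0.275 RPKM in controls (voom adjusted p = 0.593). This list leaned on control replicate 2, without which the median was 0.30 and 9 members were separated higher, where 13.7% of all genes were. p53 and apoptosis genes had 7 of 29 separated higher (24.1%, against 9.4% of all genes) and 0 lower (against 3.47%), with a median of 0.92. After quantile normalization 4 were separated higher, against 5.85% of all genes, and the median was 0.42. pmaip1 (ENSDARG00000089307), a BH3-only gene that favours cell death, had 41.5 and 45.0 RPKM at traction, 52.5 and 64.1 RPKM at arrival and 0 and 1.77 RPKM in controls.

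Immediate early genes had 7 of 36 members separated higher (19.4%, against 9.4% of all genes) and 0 lower (against 3.47%), with a median of 0.79 that was 0.39 after quantile normalization. ATF3 (ENSDARG00000007823), a stress transcription factor gene, had 162 and 233 RPKM at traction, 116 and 181 RPKM at arrival and 3.81 and 4.08 RPKM in controls (5.31 ± 1.75, voom adjusted p = 0.418). IER5 (ENSDARG00000009881), a stress-induced gene, had 191 and 290.2 RPKM at traction and 2.92 and 15.9 RPKM in controls. SOCS3 (ENSDARG00000026611), a feedback inhibitor gene of cytokine receptors, had 23.3 and 17.8 RPKM at traction and 0 in both controls (voom adjusted p = 0.0023). The classical early genes egr1 and JUNB overlapped. egr1 (ENSDARG00000037421) had 522 and 1003 RPKM at traction and 335 and 1672 RPKM in controls.

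Some abundant genes of heme and iron handling were separated on the higher side. fthl27 (ENSDARG00000031776), a ferritin gene that stores iron, had 5679 and 3712 RPKM at traction, 2562 and 3583 RPKM at arrival and 802 and 648 RPKM in controls (2.67 ± 0.899, limma adjusted p = 0.584, voom adjusted p = 0.00386). fthl28 (ENSDARG00000076221) had 849.6 and 1987 RPKM at traction and 137 and 70.33 RPKM in controls (voom adjusted p = 0.288). HMOX1 (ENSDARG00000027529), the heme oxygenase gene, had 3262 and 819 RPKM at traction, 817 and 2333 RPKM at arrival and 290.2 and 141 RPKM in controls (voom adjusted p = 0.332). All 3 were named from the separated members. The ferritin copies fthl30 and fthl31 were high in traction replicate 2 alone. fthl30 (ENSDARG00000077360) had 35.4 and 5034 RPKM at traction and 25.8 and 1.01 RPKM in controls, and fthl31 (ENSDARG00000094210) had 1.80 and 5277 RPKM at traction and 9.05 and 42.1 RPKM in controls. The exporter gene SLC40A1 (ENSDARG00000000241) overlapped, with 127 and 139.7 RPKM at traction and 716 and 91.1 RPKM in controls. The list had 3 of 27 members separated higher (11.11%) and 1 lower (3.7%), near the 9.4% and 3.47% of all genes, with a median of 1.09 that was 0.02 without traction replicate 2, and summed to 10368 and 17859 RPKM at traction and 2375 and 1342 RPKM in controls. Erythroid markers (15 genes) summed to 188 and 205 RPKM at traction and 43.2 and 5.87 RPKM in controls. Of 12 tested members 2 were separated higher (16.7%, against 9.4% of all genes), tspo and hbae3. Most of the traction sums came from tspo (ENSDARG00000026655), the translocator protein gene. It had 109 and 150 RPKM at traction, 90.9 and 97.6 RPKM at arrival and 31.2 and 0.0872 RPKM in controls. The alpha globin gene hbae3 (ENSDARG00000079305) had 77.5 and 47.5 RPKM at traction and 11.0 and 4.76 RPKM in controls. The part of erythroid RNA in the heme and iron values was not tested.

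Macrophage markers were separated in both directions. Of 38 tested markers 2 were separated higher (5.26%, against 9.4% of all genes) and 3 lower (7.89%, against 3.47% of all genes). Without traction replicate 1 the counts were 2 and 11, against 28% and 5.71% of all genes, and without control replicate 2 they were 4 and 8, against 13.7% and 11.9% of all genes. The median of -0.42 ran from -0.88 without traction replicate 1 to -0.06 without traction replicate 2. IRF8 (ENSDARG00000056407), a transcription factor gene that macrophages need, had 74.7 and 37.7 RPKM at traction, 49.8 and 74.6 RPKM at arrival and 309 and 244 RPKM in controls (-2.35 ± 1.71, limma adjusted p = 0.879). ptprc (ENSDARG00000071437), the leukocyte phosphatase gene CD45, had 17.1 and 6.15 RPKM at traction and 37.7 and 45.3 RPKM in controls. The separated copy of MFAP4 (ENSDARG00000038681), a secreted glycoprotein gene that marks zebrafish macrophages, had 10.2 and 8.31 RPKM at traction, 52.8 and 55.7 RPKM at arrival and 44.2 and 30.7 RPKM in controls. Reads of MFAP4 copies may have been split by the counting, and the other tested copies overlapped or lay within a gap of 1. marco (ENSDARG00000059294), a scavenger receptor gene, had 0 and 26.5 RPKM at traction and 21.2 and 144 RPKM in controls, which overlapped.

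The markers separated on the higher side were SLC3A2 and cd74b. SLC3A2 (ENSDARG00000037012), an amino acid transporter subunit gene of many cell types, had 304 and 232 RPKM at traction and 36.1 and 1.41 RPKM in controls. cd74b (ENSDARG00000036628), the invariant chain gene of class II antigen presentation, had 85.8 and 11.05 RPKM at traction, 0 and 0.108 RPKM at arrival and 0 in both controls (5.02 ± 1.29, voom adjusted p = 0.00296). Among engulfment receptor and complement genes 0 of 23 were separated higher (against 9.4% of all genes) and 1 lower (4.35%, near the 3.47% of all genes). The lower one, stab1 (ENSDARG00000076484), encodes a clearance receptor and had 4.71 and 15.1 RPKM at traction, 39.0 and 58.7 RPKM at arrival and 74.1 and 365 RPKM in controls (-4.11 ± 1.77, limma adjusted p = 0.823). Its 3 macrophage stages did not overlap, with controls highest and traction lowest. Lysosome and proton pump genes had 7 of 59 separated higher (11.9%, near the 9.4% of all genes) and 1 lower (1.69%, against 3.47%). After quantile normalization 5 of them were separated higher and 4 lower, against 5.85% and 5.56% of all genes. Their median of -0.18 ran from -0.65 to 0.74 over the settings tried, the latter without control replicate 1. Lipid genes had 1 of 32 separated each way (3.12%). The apolipoprotein gene apoeb (ENSDARG00000040295) had 1773 and 1059 RPKM at traction and 10422 and 1656 RPKM in controls, which overlapped.

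Inflammatory mediators had 4 of 34 members separated higher (11.8%, near the 9.4% of all genes) and 2 lower (5.88%, against 3.47%). Their median of 0.90 was 0.30 without traction replicate 2 and 0.32 after quantile normalization. ACOD1 (ENSDARG00000069844), the itaconate-producing enzyme gene of activated macrophages, had 31.9 and 1056 RPKM at traction, 95.4 and 55.4 RPKM at arrival and 0 and 9.64 RPKM in controls (5.84 ± 1.90). CXCR4 (ENSDARG00000041959), a chemokine receptor gene, had 664 and 112 RPKM at traction, 0.335 and 40.0 RPKM at arrival and 21.0 and 1.70 RPKM in controls (5.16 ± 1.96, voom adjusted p = 0.605). LTA4H (ENSDARG00000006029), which makes the attractant leukotriene B4, had 94.8 and 24.8 RPKM at traction, 93.1 and 33.6 RPKM at arrival and 9.33 and 0.112 RPKM in controls. The enzyme gene one step before it was lower, as ALOX5 (ENSDARG00000057273) had 0 and 7.76 RPKM at traction and 51.6 and 25.9 RPKM in controls (-3.67 ± 1.97). The inflammasome caspase gene caspa (ENSDARG00000008165) had 51.9 and 46.0 RPKM at traction and 151 and 121 RPKM in controls. Interferon and antigen presentation genes had 3 of 19 separated higher (15.8%) and 1 lower (5.26%), and myeloid transcription factors 3 of 26 higher (11.5%) and 1 lower (3.85%).

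Cell cycle and DNA replication genes had 3 of 58 members separated higher (5.17%, against 9.4% of all genes) and 5 lower (8.62%, against 3.47% of all genes). Their median of -0.80 turned to 0.35 without control replicate 1 and was -1.45 without control replicate 2. After quantile normalization 2 members were separated higher and 8 lower, against 5.85% and 5.56% of all genes. LIG1 (ENSDARG00000060041), the replication ligase gene, had 1.73 and 2.32 RPKM at traction, 26.9 and 49.8 RPKM at arrival and 38 and 50.4 RPKM in controls (-3.89 ± 1.71). mki67 (ENSDARG00000091150), the Ki-67 gene of dividing cells, had 0 and 1.40 RPKM at traction and 16.5 and 25.2 RPKM in controls. SMC2 (ENSDARG00000017744), a condensin subunit gene, had 0 and 4.61 RPKM at traction and 28.5 and 19.4 RPKM in controls. The replication genes RFC4 and MCM6 lay on the other side. MCM6 (ENSDARG00000057683), a helicase subunit gene, had 20.8 and 9.21 RPKM at traction, 86.8 and 25.7 RPKM at arrival and 0.198 and 0.101 RPKM in controls.

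Of 82 nuclear-encoded genes of the respiratory chain 5 were separated higher (6.1%, against 9.4% of all genes) and 0 lower (against 3.47%). Their median of 1.04 turned to -0.27 without control replicate 2. cox8b (ENSDARG00000097209), a cytochrome oxidase subunit gene, had 460.0 and 89.4 RPKM at traction and 22.7 and 0 RPKM in controls. None of the 13 protein-coding genes of the mitochondrial genome was separated, and 9 of 13 lay lower without overlap, against 11% of all genes (median -1.02, between -1.46 and -0.56 over the settings tried). MT-ND4 (ENSDARG00000063917), a subunit of the first complex, had 2659 and 1284 RPKM at traction and 3581 and 5646 RPKM in controls (-1.28 ± 0.741, limma adjusted p = 0.844, voom adjusted p = 0.0128). MT-CYB (ENSDARG00000063924), of the third complex, overlapped, with 10498 and 7219 RPKM at traction and 8549 and 5633 RPKM in controls. Cytosolic ribosomal protein genes had 0 of 68 separated either way, against 9.4% higher and 3.47% lower over all genes. Their median of 0.63 turned to -0.31 without control replicate 2.

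Among markers of other cell types, glia markers had 4 of 11 tested members separated higher (36.4%), where 9.4% of all genes were separated higher and 3.47% lower. her4.1 (ENSDARG00000056732), a Notch target gene of radial glia, had 118 and 20.8 RPKM at traction and 0 in both controls (voom adjusted p = 0.00251). The 16 glia markers summed to 1262 and 518 RPKM at traction and 282 and 48.2 RPKM in controls. Neutrophil markers had 3 of 5 separated higher, neuron markers 3 of 23 higher and 1 lower, photoreceptor and lens markers 2 of 30 higher, epidermal markers 1 of 11 each way, and mural and mesenchyme markers 2 of 12 higher and 1 lower. Endothelial and muscle markers had 0 separated of 21 and of 9. What these markers contribute to the differences of other genes was not tested.

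**Figure D5:**
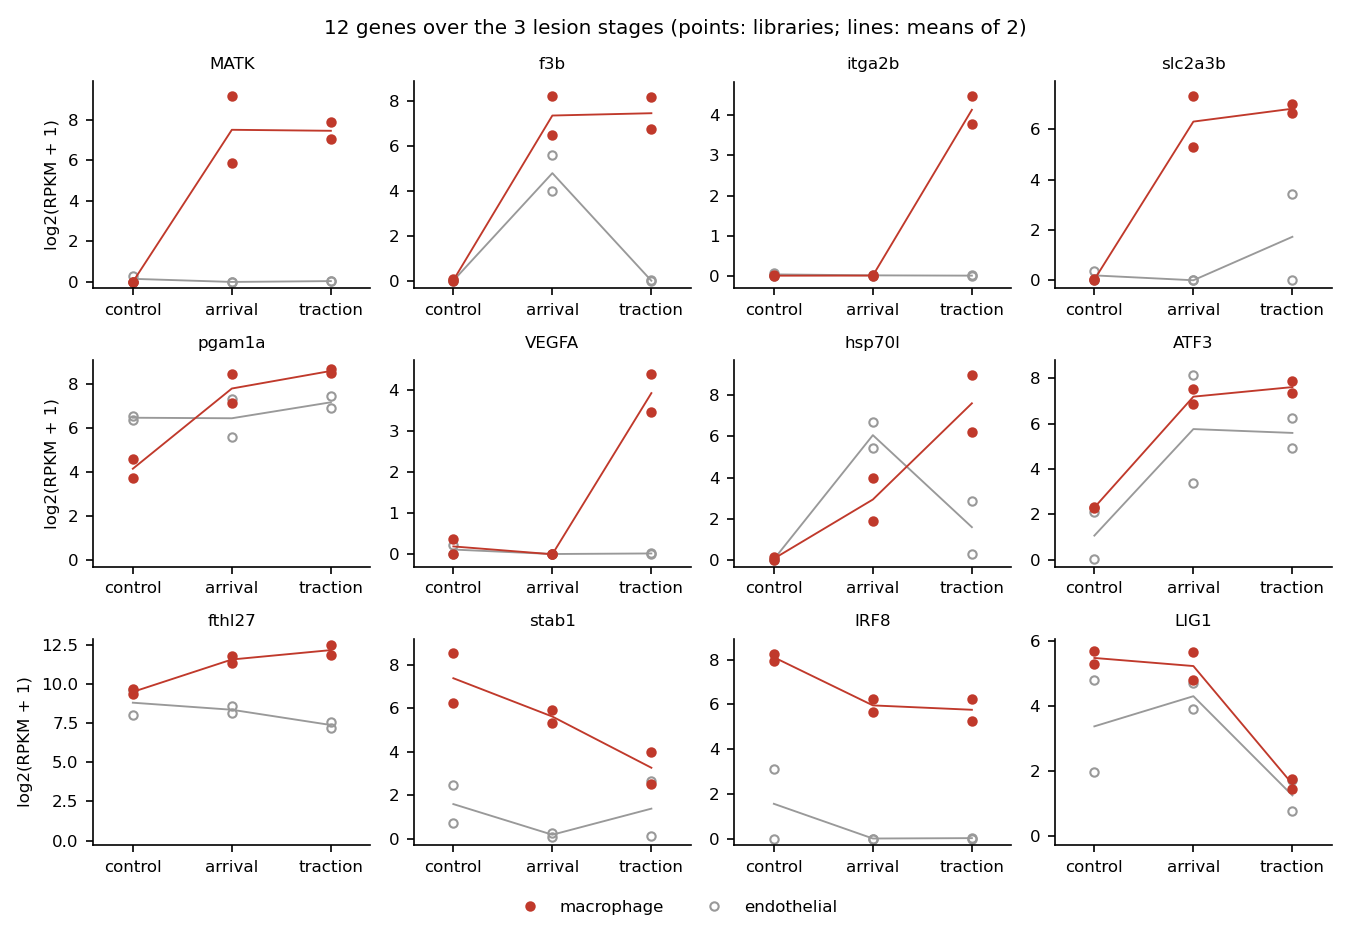
log2(RPKM + 1) of 12 genes in control, arrival and traction libraries, for macrophages (filled red circles) and endothelial cells (open grey circles), with lines through the means of 2 libraries. MATK, f3b, slc2a3b, pgam1a and ATF3 are already high in macrophages at arrival, itga2b and VEGFA are high in macrophages at traction alone, and macrophage stab1 is lowest at traction.

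The change at traction was compared between macrophages and endothelial cells, which were sampled as separate pools. The limma interaction test called 0 of 17613 genes, with 739 (4.2%) at an unadjusted p under 0.05, and voom called 66 (0.375%). OAZ2 (ENSDARG00000045929), an inhibitor gene of polyamine synthesis, had 26.8 and 80 RPKM at macrophage traction and 0 in macrophage controls, and 0 and 0.0229 RPKM at endothelial traction and 19.1 and 23.2 RPKM in endothelial controls (difference between the cell types 10.01 ± 2.35, voom adjusted p = 3.36e-05). ADORA2B (ENSDARG00000002533), an adenosine receptor gene, had 28.0 and 29.8 RPKM at macrophage traction and 0.105 and 0 RPKM in macrophage controls, and 0 and 0.553 RPKM at endothelial traction and 51.1 and 25.1 RPKM in endothelial controls. Each gene was on opposite sides in the cell types, without overlap, and both were named for a small interaction p, which favours that pattern. Endothelial control replicate 2 held 2836 RPKM of macrophage markers, against 92.8 to 431 RPKM in the other endothelial libraries. Endothelial traction replicate 1 held 52729 RPKM of photoreceptor and lens markers. Endothelial traction replicate 2 held 25.0 RPKM of them, and the endothelial controls 223 and 13.7 RPKM. Endothelial markers summed to 380 and 4510 RPKM at endothelial traction. The part of macrophage, photoreceptor or lens RNA in the endothelial values was not tested.

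The authors' deposited table marked 603 genes for traction against control, and 0 genes in it had an adjusted p under 0.05. Of the genes marked in the authors' deposited table, 513 were among those tested here and 342 of these were separated. Over all tested genes 9.4% were separated higher and 3.47% lower. The marks and the separation come from the same 4 libraries, so their overlap is no independent support.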

How the data were processed

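RNA-seq of 4 macrophage libraries, out of 12, was analysed, with groups taken from the sample labels. HTSeq 0.6.0, TopHat2 2.0.12, DESeq 1.16.0 and Bowtie2 2.2.3 are named in the submitters' processing notes, with no order given. Coordinates are left out because the build was not given in the sources used here. For 33737 Ensembl gene IDs the authors deposited RPKM in each library. The authors' deposited comparison tables hold size-factor scaled means per group, a normalized signal, and p-values and adjusted p-values.

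Reads were recovered by combining the RPKM with those means, and 100% of values came out whole within 0.05 reads. Libraries were made with Smart-seq2, per the labels' protocols, and no molecular identifiers are named, so reads are not independent molecules. With about 80 cells a library, cell number limits the precision of weakly expressed genes whatever the depth.

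A gene was tested where 2 or more libraries held 10 or more reads, scaled to the median depth, and all libraries together 15 or more (17613 genes). limma 3.58.1 (R 4.3.3) was fitted to log2(RPKM + 1) over the 12 libraries and 6 group means, with trended prior variances and robust moderation, with two-sided tests and Benjamini-Hochberg adjustment over all tested genes. Voom of limma on the recovered reads, with trimmed mean scaling, gave the alternative count-based calls. The code was tested on simulated data. Fitted differences of genes at 0 in one group depend on the pseudocount and are no bounds. With such groups set at a floor of 3 reads, list medians moved by at most 0.05 and none changed sign.

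Named genes were the 15 of smallest p on each side among separated, named genes with at least 10 RPKM in each library of the higher side. Up to 3 members on each side of each of 30 gene lists with at least 5 RPKM, a fixed set of macrophage, Rac1 and PI3K genes, and the 5 of smallest interaction p were added. Other list members given in the text were chosen after their values were seen. The comparison and the lists were chosen with earlier results of these data known. Names were found for 21939 gene IDs, 13828 of them tested, and upper-case symbols can stand for either zebrafish copy. Deviations of same-numbered traction and control libraries were uncorrelated over genes (0.0036). Replicates also differed in markers of other cells, which can hide a shared batch, so a pairing by replicate number was not settled. No source used here gives the strand setting of the counting, and reads of antisense or overlapping genes cannot be told apart. A gene that the rule names is not reported here.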

Additional observations from a re-analysis of the deposited data

Results flagged for a closer look

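Flagged among the named genes were 5 in which both macrophage traction libraries lay above both macrophage controls, with a gap of at least 1. In the same 5 both endothelial traction libraries lay below both endothelial controls, also with a gap of at least 1. Named genes with a smaller endothelial gap, such as fthl27, are not among the 5. How many of all tested genes have this pattern was not counted. The values are the difference of the 2 differences on the log2(RPKM + 1) scale. All but rgs5b were named for their small interaction p, a choice that favours opposite directions. rgs5b was named as a member of the mural and mesenchyme markers. None of the 5 was called by limma (adjusted p = 0.953 for each), and no explanation was tested. rgs5b (ENSDARG00000017860), a regulator gene of G-protein signalling, gave 8.83, with 814 and 170.3 RPKM at macrophage traction against 63.8 and 27.6 RPKM in macrophage controls, and 0.0408 and 0.0686 RPKM at endothelial traction against 72.5 and 40.5 RPKM in endothelial controls (voom adjusted p = 0.0973). CXCR4 (ENSDARG00000041959) gave 12.23, with 0.101 and 0.0844 RPKM at endothelial traction against 84.0 and 255 RPKM in endothelial controls (voom adjusted p = 0.0425). CLIC2 (ENSDARG00000010625), a chloride channel family gene, gave 9.28, with 799 and 487 RPKM at macrophage traction against 54.6 and 11.7 RPKM in macrophage controls (voom adjusted p = 0.276). ADORA2B gave 9.72 (voom adjusted p = 0.0256) and OAZ2 gave 10.01 (voom adjusted p = 3.36e-05).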

How the results depend on the processing

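Against 0 genes called by limma between traction and control, 8 were called without trend and robust variances, 471 by voom and 1021 (1013 higher) without the 3 libraries rich in photoreceptor markers, an alternative chosen after seeing the data that also leaves out traction replicate 1. Leaving out 1 of the 4 libraries gave 0 to 245 calls, with 0 without control replicate 2, 81 without control replicate 1, 64 without traction replicate 2 and 245 without traction replicate 1. In these fits and in the one without the photoreceptor libraries 1 library stands for an arm and is assumed to vary like the other groups. The replicate block gave 0 calls for traction and 0 for the interaction, and whether the numbers pair the libraries was not settled. The interaction count of 0 was 66 by voom, 818 without the photoreceptor libraries and 0 to 0 without single libraries. The 1655 separated higher genes became 1030 after quantile normalization, 2413 to 4936 without single libraries and 4936 without the photoreceptor libraries. The 612 separated lower genes became 979, 1006 to 3002 and 1006 under the same settings. Both counts without the photoreceptor libraries equal those without traction replicate 1, and a lone library has fewer values to overlap. The cause of the shift under quantile normalization was not tested. An edgeR test was planned and not run, as counts per library were not among the deposited columns.

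The 15 reversals of direction among named genes were all of genes whose groups overlapped, and their cause was not tested. Over the fits without single libraries, SPI1 ran from -0.0765 (without control replicate 2) to 0.922, MFAP4 (ENSDARG00000088745) from -0.143 (without traction replicate 1) to 1.09, PIK3CB from -2.25 to 0.399 (without control replicate 2), RAC1 from -1.08 to 0.475 (without control replicate 2), MFAP4 (ENSDARG00000038683) from -1.40 to 0.419 (without control replicate 1), PIK3CA from -0.00789 (without traction replicate 2) to 1.13, PIK3CG from -1.61 to 0.123 (without traction replicate 2) and PIK3CD from -1.19 to 0.0122 (without control replicate 1). Without the photoreceptor libraries SPI1 was -0.0146, MFAP4 (ENSDARG00000088745) -0.143 and RAC1 0.445, and after quantile normalization PIK3CA was -0.0265. The median of all differences was 0.22 when rescaled without the gene of most reads and 0.72 by voom. With 2 libraries a group, a typical SE of 1.65 and few cells, large differences can also go uncalled. For si:rp71-1c10.11, limma did not call a difference of 10.73 ± 1.62 between traction and control (adjusted p = 0.0607).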
